A study of Mus musculus with 4 samples.

Results

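Histone variants and the chaperones that carry histones to chromatin were followed in the RNA of mouse 2-cell embryos cultured with or without dimethyl sulfoxide (DMSO). The 10 genes are H3f3a and H3f3b, which encode the histone variant H3.3, H2afz, which encodes H2A.Z, and the chaperone genes Hira, Chaf1a, Chaf1b, Asf1a, Asf1b, Npm2 and Nasp. They were taken by their names, and all 10 were found among the 30049 Ensembl genes of the deposited table. Wild-type zygotes of the BDF1*BDF1 F2 background, collected 18 h after hCG (human chorionic gonadotropin, which triggers ovulation), were kept for 24 h in KSOM, a culture medium for preimplantation embryos. The control group received KSOM alone and the treated group KSOM with 2% DMSO, and 50 embryos that had reached the 2-cell stage were collected for each group. Each group has 2 libraries, replicates 1 and 2, and pairs of values are given in this order. Nothing in the labels says that the libraries of a group came from separate collections of embryos, so p-values measure the spread between these libraries, which may be technical. Values are in TPM, a level corrected for transcript length and scaled to the library's total, and keep no record of sequencing depth. Because whole embryos were lysed in bulk, fewer embryos or cells holding a transcript and less of it per cell cannot be told apart.

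DNA in the nucleus is wrapped around histones, and chaperones hand new histones to chromatin. Chromatin assembly factor 1 (CAF-1) places the replication-coupled forms of H3 behind the replication fork, whereas the HIRA complex places H3.3 independently of replication. HIRA and H3.3 of maternal origin are known for rebuilding the chromatin of the sperm genome after fertilization, when protamines are exchanged for histones. The mRNAs of the replication-coupled histones lack a poly(A) tail, but those of the variants followed here carry one, so that a library primed on poly(A) can hold them.

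H3f3a and H3f3b encode the same protein in different letters, which lets short reads be told apart, while some processed copies of these genes do not allow it. The first 90 coding bases of H3f3a, H3f3b and the copy H3f3c are shown for this reason, 5′ to 3′ from the GENCODE M21 transcripts (GRCm38). Capitals mark the bases that differ from H3f3a.
H3f3a: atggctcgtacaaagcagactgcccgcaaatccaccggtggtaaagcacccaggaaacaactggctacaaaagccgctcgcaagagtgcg
H3f3b: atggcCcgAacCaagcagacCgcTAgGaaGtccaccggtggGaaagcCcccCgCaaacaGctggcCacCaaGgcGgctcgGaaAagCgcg
H3f3c: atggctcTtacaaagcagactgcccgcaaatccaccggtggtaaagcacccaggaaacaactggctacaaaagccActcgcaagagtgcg

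Over the 411 coding bases, H3f3a and H3f3b differ at 95 positions, and none of the 137 codons, the stop included, encodes another residue (0 differences). Their longest identical run is 23 bases, shorter than the 31-base words by which kallisto assigns reads. H3f3c, a processed pseudogene in GENCODE M21 on the minus strand of chromosome 2 from 119665626 to 119666036, differs from H3f3a at 4 positions only and shares a run of 267 bases with it. For H2afz the copy goes further. The same stretch of H2afz, of its paralog H2afv and of the processed pseudogene Gm8203 is shown, with capitals where a base differs from H2afz.
H2afz: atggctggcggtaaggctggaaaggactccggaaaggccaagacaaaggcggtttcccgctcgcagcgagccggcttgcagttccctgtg
H2afv: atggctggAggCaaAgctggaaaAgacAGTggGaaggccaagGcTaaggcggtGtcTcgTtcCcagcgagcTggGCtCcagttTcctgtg
Gm8203: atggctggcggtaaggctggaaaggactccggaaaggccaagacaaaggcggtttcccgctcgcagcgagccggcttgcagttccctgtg

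H2afv differs from H2afz at 81 of 387 coding bases, which change 3 residues. Gm8203, on the plus strand of chromosome 6 from 116173737 to 116174123, is identical to the H2afz coding sequence over all 387 bases. Reads from that stretch cannot be told apart by sequence, and kallisto splits them between the genes by an estimate.

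None of the 10 genes was called. The test was limma's moderated linear model, fitted to log2(TPM + 1), and a call required a Benjamini-Hochberg adjusted p-value under 0.05. Of the 12038 genes whose mean reached 1 TPM, 20.5% were called, 6.42% (773) higher and 14.1% (1697) lower in DMSO-treated embryos. Quantile normalization gave a more even split of 1076 higher and 1121 lower. All 10 members were tested and 0 were called. A fit with the replicate number as a block called 5, beside 42.6% of all genes, but the labels state no shared origin for these numbers. Without the block, an unadjusted p-value under 0.05 was reached by 4 of the 10 (H3f3a, Hira, Nasp and Npm2), beside 40.2% of all genes tested. The DMSO and control values did not overlap for 3 members that were lower (H3f3a, Hira and Nasp) and 3 that were higher (H2afz, Asf1a and Npm2). Among all genes tested, 38.7% were lower and 31.1% higher in this sense, so the members stood close to the background. Their median log2 fold change was -0.03, and that of all genes tested -0.09.

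**Figure D1:**
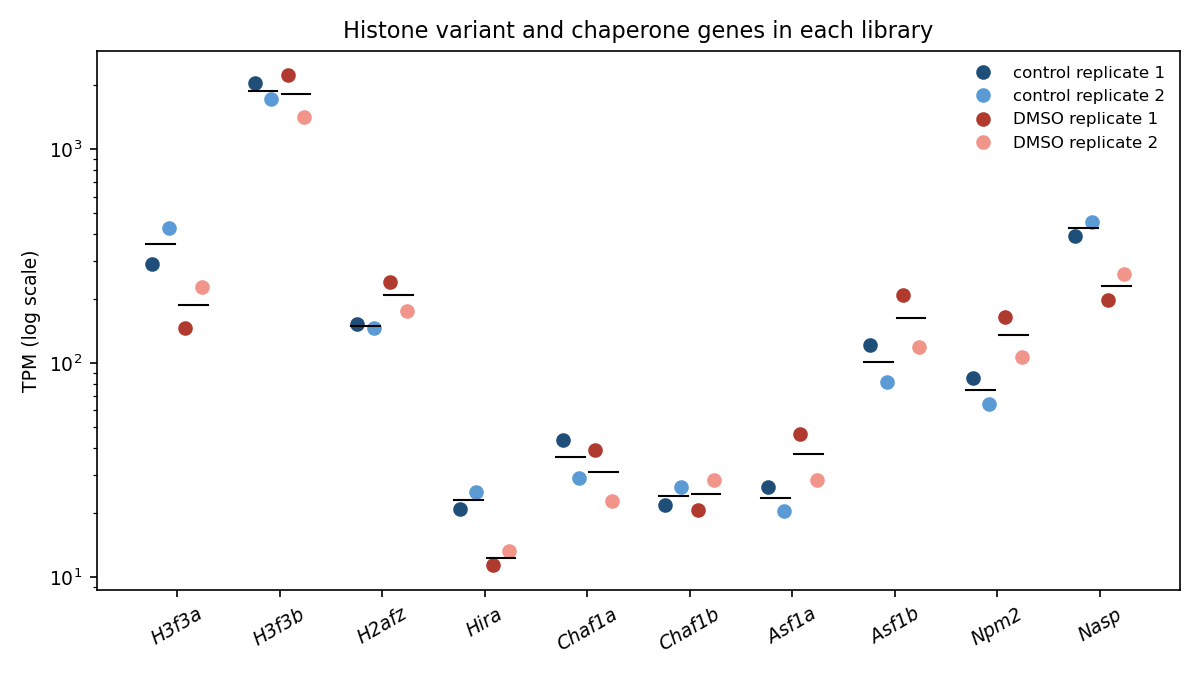
TPM on a log axis of the 10 genes in each of the 4 libraries, with a black bar at the mean of each group (n = 2). H3f3b is lowest in DMSO replicate 2, at 1406 TPM, and the DMSO values of H3f3a, Hira and Nasp lie below both control values.

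H3f3b was the most abundant of the genes in every library. It was at 2038 and 1709 TPM in control replicates 1 and 2 and at 2212 and 1406 TPM in DMSO replicates 1 and 2. The groups overlapped, with the DMSO values on both sides of the controls, and the mean of H3f3b over the libraries exceeded that of 99.7% of the genes tested. Its log2 fold change on the TPM + 1 scale was -0.08 (SE 0.30, 95% confidence interval -0.81 to 0.64, limma adjusted p = 0.852). Leaving out each library in turn gave values from -0.41 to 0.25. A change of the size seen for H3f3a is outside the confidence interval, but one of about 1.5-fold in either direction is not.

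H3f3a, which encodes the same H3.3 protein, was at 289 and 427 TPM in control embryos, against 145 and 228 TPM under DMSO. Both DMSO values lay below both control values. The log2 fold change was -0.95 (SE 0.33, 95% confidence interval -1.74 to -0.15, limma adjusted p = 0.0835), which does not pass the threshold. It ranged from -1.27 without DMSO replicate 2 to -0.62 without DMSO replicate 1. H3f3a lies on the minus strand of chromosome 1 of GRCm38 from 180800832 to 180813943, and H3f3b on the minus strand of chromosome 11 from 116021912 to 116027962.

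Since the protein is the same, the levels of H3f3a and H3f3b may be added. Their sum was 2232 ± 135 TPM (SD, n = 2) in control and 1995 ± 512 TPM (SD, n = 2) in DMSO-treated embryos, and the groups overlapped. H3f3a gave 12.4% and 19.99% of this sum in control embryos, against 6.15% and 13.9% under DMSO. The shares overlapped as well. The log2 ratio of H3f3a to H3f3b differed by -0.87 between the groups (exact permutation test, two-sided, p = 0.667), with values from -1.52 without DMSO replicate 2 to -0.22 without DMSO replicate 1. With 2 libraries against 2 the smallest value of this exact test is p = 0.333.

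A minor part of the sequence of H3f3a is shared. Of its 31-base words 15.2% occur in transcripts of other genes, and of those of H3f3b 8.78%. Of the 5 processed pseudogenes that hold at least 50% of their words in common with H3f3a, only H3f3c reached a mean of 1 TPM. H3f3c was listed at 13.6 and 9.46 TPM without DMSO and 47.5 and 0 TPM with it, so its estimate varied most between the DMSO libraries. With all 5 added, H3f3a was at 306 and 439 TPM in the controls and 193 and 229 TPM after DMSO, and the change on the log2 scale was -0.80 (SE 0.28, limma adjusted p = 0.0853).

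H2afz, which encodes the H2A variant found around promoters, was at 153 and 146 TPM in control embryos, against 239 and 175 TPM under DMSO. Both DMSO values lay above both control values, but the log2 fold change of 0.45 (SE 0.27, 95% confidence interval -0.19 to 1.09) was not called (limma adjusted p = 0.241). It was 0.23 without DMSO replicate 1 and 0.68 without DMSO replicate 2. The level is uncertain, because the copy Gm8203 was listed above it in each library, at 381 and 699 TPM without DMSO and 396 and 583 TPM with it. Together H2afz and Gm8203 were at 534 and 844 TPM in the controls and 635 and 757 TPM after DMSO, and the groups overlapped. The log2 fold change of the sum was 0.05 (limma adjusted p = 0.917). H2afz (plus strand of chromosome 3 from 137864487 to 137866922) shares 33.5% of its 31-base words with other genes. All of these occur in Tmcc1, whose locus on the minus strand of chromosome 6 from 116018611 to 116193486 contains Gm8203.

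**Figure D2:**
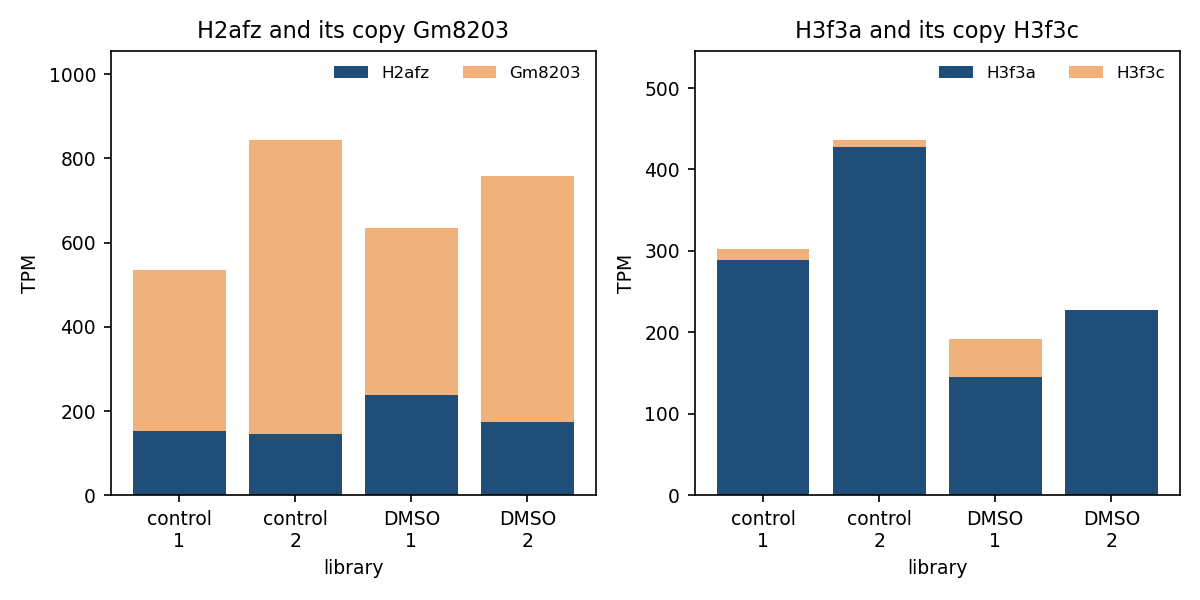
Stacked TPM of H2afz with its identical copy Gm8203 and of H3f3a with its copy H3f3c in each library. Gm8203 takes the larger part of the first sum in all 4 libraries, whereas H3f3c adds at most 47.5 TPM to H3f3a.

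H2afv encodes a second H2A.Z protein, and less than 1% of its words are shared (0.736%). It was at 540 and 444 TPM in control embryos, against 319 and 304 TPM under DMSO, with a log2 fold change of -0.65 (SE 0.25, limma adjusted p = 0.0996). The log2 ratio of H2afz to H2afv was -1.82 and -1.60 in control embryos, against -0.42 and -0.80 under DMSO. The groups were apart by 1.10, against a pooled SD of 0.22, and the exact permutation test gave its smallest value (p = 0.333, and 0.8 adjusted over the 6 ratios compared). With Gm8203 added to H2afz, an alternative chosen after seeing the data, the ratio was -0.02 and 0.93 in control embryos, against 0.99 and 1.31 under DMSO, so that the groups were barely apart.

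Hira, the subunit that gives the H3.3 chaperone complex its name, had the lowest mean of the 10 genes in both groups. It was at 20.7 and 24.9 TPM without DMSO and 11.3 and 13.2 TPM with it. Both DMSO values lay under both control values. The log2 fold change was -0.84 (SE 0.29, 95% confidence interval -1.53 to -0.15, limma adjusted p = 0.0803) and did not pass. Of its words 43.1% are shared, all of which occur in Gm28539, a gene model on the same strand that overlaps Hira and was listed at 0.131 TPM in control replicate 1 and at 0 in the other libraries. Hira lies on the plus strand of chromosome 16 from 18877037 to 18970309.

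A list of 5 genes, Ubn1, Ubn2, Cabin1, Daxx and Atrx, covered 2 routes of H3.3 deposition, that of HIRA and that of DAXX and ATRX. The counts below are for both routes together. None was called (limma, 0 of 5), beside 20.5% of all genes, and 0 had an unadjusted p-value under 0.05, beside 40.2%. All 5 had negative log2 fold changes, with a median of -0.45, against -0.09 for all genes tested. Ubn1, a subunit of the HIRA complex, was at 39.6 and 39.8 TPM in the controls and 23.6 and 28.4 TPM after DMSO (log2 fold change -0.60, SE 0.27, limma adjusted p = 0.145). Atrx, which works with Daxx to place H3.3 in heterochromatin, was the most abundant, at 151 and 187 against 145 and 103 TPM (log2 fold change -0.45, limma adjusted p = 0.265). This was -0.21 without DMSO replicate 2, -0.70 without DMSO replicate 1 and -0.17 after quantile normalization.

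**Figure D3:**
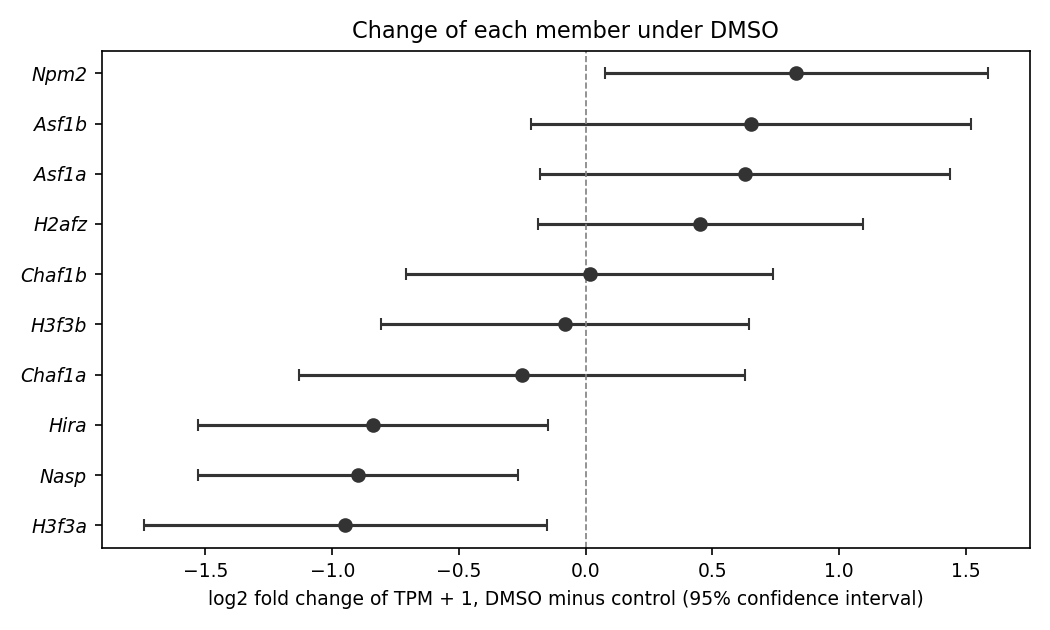
Log2 fold change of TPM + 1, DMSO minus control, of the 10 genes with 95% confidence intervals from limma (n = 2 libraries a group). The intervals of Nasp, H3f3a and Hira lie below 0 and that of Npm2 above 0, all before adjustment for the 12038 genes tested, and those of the other 6 genes include 0.

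Chaf1a and Chaf1b, the large and the middle subunit of CAF-1, showed no separation of the groups. Chaf1a was at 43.7 and 29.1 TPM in control embryos, against 39.1 and 22.7 TPM under DMSO. Chaf1b was at 21.7 and 26.3 TPM without DMSO and 20.5 and 28.4 TPM with it. In both genes the replicates of a group lay further apart than the group means. The log2 fold change of Chaf1a was -0.25 (SE 0.37, 95% confidence interval -1.13 to 0.63, limma adjusted p = 0.630), and that of Chaf1b 0.02 (SE 0.30, 95% confidence interval -0.71 to 0.74, limma adjusted p = 0.973). Leaving out each library in turn gave -0.63 to 0.13 for Chaf1a and -0.21 to 0.24 for Chaf1b. The intervals leave room for changes of more than 1.5-fold. Of the words of Chaf1a 51.0% are shared, almost all with Ubxn6, which overlaps its end on the opposite strand. Ubxn6 was at 12.5 and 10.1 TPM in the controls and 10.0 and 9.06 TPM after DMSO, and with no strand option named reads from the shared stretch cannot be told apart. Chaf1a lies on the plus strand of chromosome 17 from 56040439 to 56072289, and Chaf1b on that of chromosome 16 from 93883901 to 93906115.

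Asf1a and Asf1b are paralogs that bind H3-H4 dimers and pass them on to HIRA and CAF-1. Asf1b was at 121 and 81.4 TPM in control embryos, against 208 and 118 TPM under DMSO, and the groups overlapped narrowly. Asf1a was at 26.5 and 20.4 TPM without DMSO and 46.5 and 28.5 TPM with it, without overlap. DMSO replicate 1 was the highest library for both genes. The log2 fold changes were alike in size, 0.65 for Asf1b (SE 0.36, limma adjusted p = 0.216) and 0.63 for Asf1a (SE 0.34, limma adjusted p = 0.204), and neither was called. Without DMSO replicate 1 they were 0.25 and 0.29, and without DMSO replicate 2 they were 1.06 and 0.97. Their log2 ratio was the most even of the 6 compared, at -2.16 and -1.95 in control embryos, against -2.14 and -2.02 under DMSO (difference -0.02, exact permutation test p = 1.0). None of the words of Asf1b is shared (0%), but 44.9% of those of Asf1a are, with Mcm9 on the opposite strand, which was at 4.65 and 2.15 TPM in the controls and 1.84 and 1.34 TPM after DMSO. Asf1a lies on the plus strand of chromosome 10 from 53596757 to 53609225, and Asf1b on that of chromosome 8 from 83955507 to 83970197.

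Npm2 and Nasp had the strongest unadjusted evidence in each direction. Npm2, the oocyte nucleoplasmin that binds H2A-H2B and is supplied by the mother, was at 85.2 and 64.0 TPM in control embryos, against 164 and 107 TPM under DMSO. Both DMSO values lay above both control values, with a log2 fold change of 0.83 (SE 0.31, 95% confidence interval 0.08 to 1.59, limma adjusted p = 0.1001). It was 0.52 without DMSO replicate 1 and 1.14 without DMSO replicate 2. Nasp, which holds the soluble pool of H3-H4, was at 393 and 458 TPM without DMSO and 198 and 260 TPM with it. Its log2 fold change of -0.90 (SE 0.26, 95% confidence interval -1.53 to -0.27) had the lowest p-value of the 10 genes and missed the threshold by little (limma adjusted p = 0.0547). With genes under a mean of 5 TPM left out, it passed (adjusted p = 0.0417). Few words of either gene are shared (1.09% for Npm2 and 4.65% for Nasp). Npm2 lies on the minus strand of chromosome 14 from 70647302 to 70659244, and Nasp on that of chromosome 4 from 116601052 to 116627941.

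Npm2 was set against Npm1, its relative in all dividing cells. Npm1 was at 1410 and 1791 TPM in the controls and 1082 and 1220 TPM after DMSO. The log2 ratio of Npm2 to Npm1 was -4.03 and -4.78 in control embryos, against -2.72 and -3.50 under DMSO, higher by 1.30 (pooled SD 0.54, exact permutation test p = 0.333, the smallest it allows). The ratios of Hira to Chaf1a (difference -0.59) and of Chaf1a to Chaf1b (difference -0.27) overlapped between the groups (exact permutation test, p = 0.667 each). Leaving out each library in turn moved the former from -1.07 to -0.11 and the latter from -0.87 to 0.34, across 0. Adjusted over the 6 ratios, the exact p-values were 0.8, and 1.0 for Asf1a to Asf1b.

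**Figure D4:**
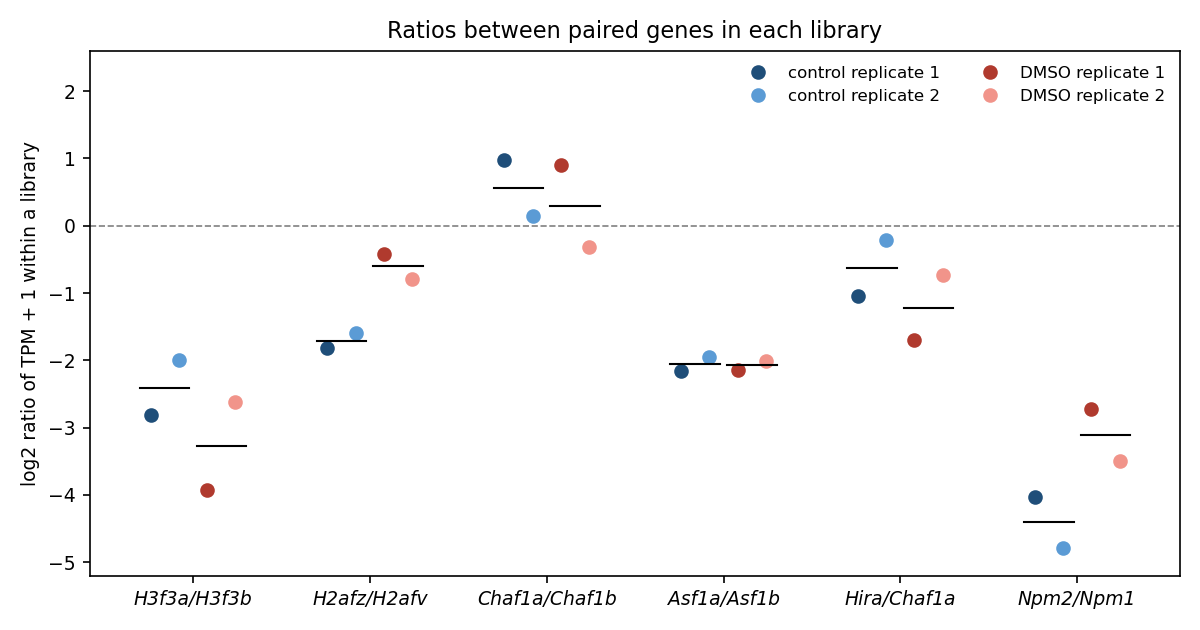
Log2 ratio of TPM + 1 between paired genes in each library, with a black bar at each group's mean (n = 2). Only H2afz/H2afv and Npm2/Npm1 have groups that do not overlap, and Asf1a/Asf1b lies between -2.16 and -1.95 in all 4 libraries.

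Markers of the oocyte, which supplies Npm2, were followed in the same libraries. Of 12 listed 10 were tested, of which limma called 2 higher (Oosp1 and Bmp15) and 0 lower, beside 6.42% and 14.1% of all genes. The log2 fold change was positive for 7 and negative for 3 (Zp3, Mos and Padi6), with none of these 3 called. All 7 with a positive value were higher without overlap, beside 31.1% of all genes. Zp3 and Mos were lower without overlap, beside 38.7% of all genes. The summed level of the list was 1118 and 721 TPM in control embryos, against 2877 and 2220 TPM under DMSO. Most of this sum was Oosp1, at 877 and 576 against 2086 and 1763 TPM, and Oog1 was listed at 0 throughout. Markers activated at the 2-cell stage were also present. Of 9 listed, 8 were tested and limma called 4 higher, beside 6.42% of all genes, and 0 lower. The log2 fold change was positive for 7 and negative for 1 (Zscan4d, -0.05, with overlap). The list summed to 874 and 632 TPM in control embryos, against 2424 and 1701 TPM under DMSO, with Tcstv3 as the most abundant. The part of these transcripts in the values of Npm2 was not tested. Markers of cumulus or granulosa cells, which surround the egg, were near 0, and 1 of 10 was tested. They summed to 3.17 and 2.06 TPM in control embryos, against 3.71 and 2.65 TPM under DMSO, with Amh and Inhba at 0.

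The order of the levels differed between the groups in its middle part. In control embryos the means ran from H3f3b (1874 TPM) over Nasp (425), H3f3a (358), H2afz (149), Asf1b (101), Npm2 (74.6), Chaf1a (36.4), Chaf1b (24.0) and Asf1a (23.4) to Hira (22.8 TPM). Nasp and H3f3a, Asf1b and Npm2, and Chaf1b, Asf1a and Hira were neighbours whose values overlapped. In DMSO-treated embryos the means were 1809 TPM for H3f3b, 229 for Nasp, 207 for H2afz, 186 for H3f3a, 163 for Asf1b, 135 for Npm2, 37.5 for Asf1a, 30.9 for Chaf1a, 24.5 for Chaf1b and 12.3 TPM for Hira. From Nasp to Npm2 each gene overlapped the next, as did Asf1a, Chaf1a and Chaf1b, while H3f3b lay apart above and Hira below. The place of H2afz holds for its value without the identical copy Gm8203. With Gm8203 added, its mean was 689 TPM in control and 696 TPM in DMSO-treated embryos, above Nasp in both groups. All 10 genes together, without copies, came to 3192 and 2986 TPM in control embryos, against 3283 and 2386 TPM under DMSO. DMSO replicate 2 was the lowest, and in it the 20 most abundant genes of the library held 35.1% of the TPM sum, against 29.4% in DMSO replicate 1 and 22.1% and 23.6% in the control embryos. The part of these genes in the members' values was not tested.

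For each member, the protein-coding gene outside the lists with the nearest profile was sought, by the Euclidean distance of log2(TPM + 1) over the 4 libraries. The closest match was that of H2afz with Dnajc8 (distance 0.116), followed by Npm2 with Afdn (0.118), Asf1a with Fbxo28 (0.142), Nasp with Snrpa1 (0.152) and Asf1b with Sin3a (0.157). H3f3a lay nearest to Cox5b (0.305), which was at 323 and 477 TPM in control embryos, against 165 and 243 TPM under DMSO. Hira lay nearest to Flii (0.199), Chaf1b to Zfp598 (0.245) and Chaf1a to D1Pas1 (0.267). H3f3b, for which few genes have a like level, lay farthest from its neighbour Dynll1 (0.609). With 4 libraries and 12038 genes, such likeness is a description only.

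The rest of the histone deposition machinery was followed in 52 further genes, listed by function and including the 5 of the HIRA and DAXX-ATRX routes. Of these, 51 were found and 48 tested, and limma called 8 lower and 1 higher. The shares, 8 and 1 of 48, stand beside 14.1% and 6.42% of all genes, and the median log2 fold change was -0.46 against -0.09. The groups did not overlap for 26 of the 48 that were lower and 6 that were higher, beside 38.7% and 31.1% of all genes. At an unadjusted p-value under 0.05 there were 16 of the 48, beside 40.2% of all genes. Leaving out each library in turn kept the sign of all 9 called genes. The log2 fold change ranged from -2.47 to -1.46 for Cdan1 and from -1.07 to -0.94 for Rbbp4. For H1f0 it ranged from 0.98 to 1.37. Whether a gene was called depended on the library left out, over the whole table as well as here. Without a filter on low values limma called 0, both among these genes and over the whole table, where 5368 genes had an unadjusted p-value under 0.05.

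**Figure D5:**
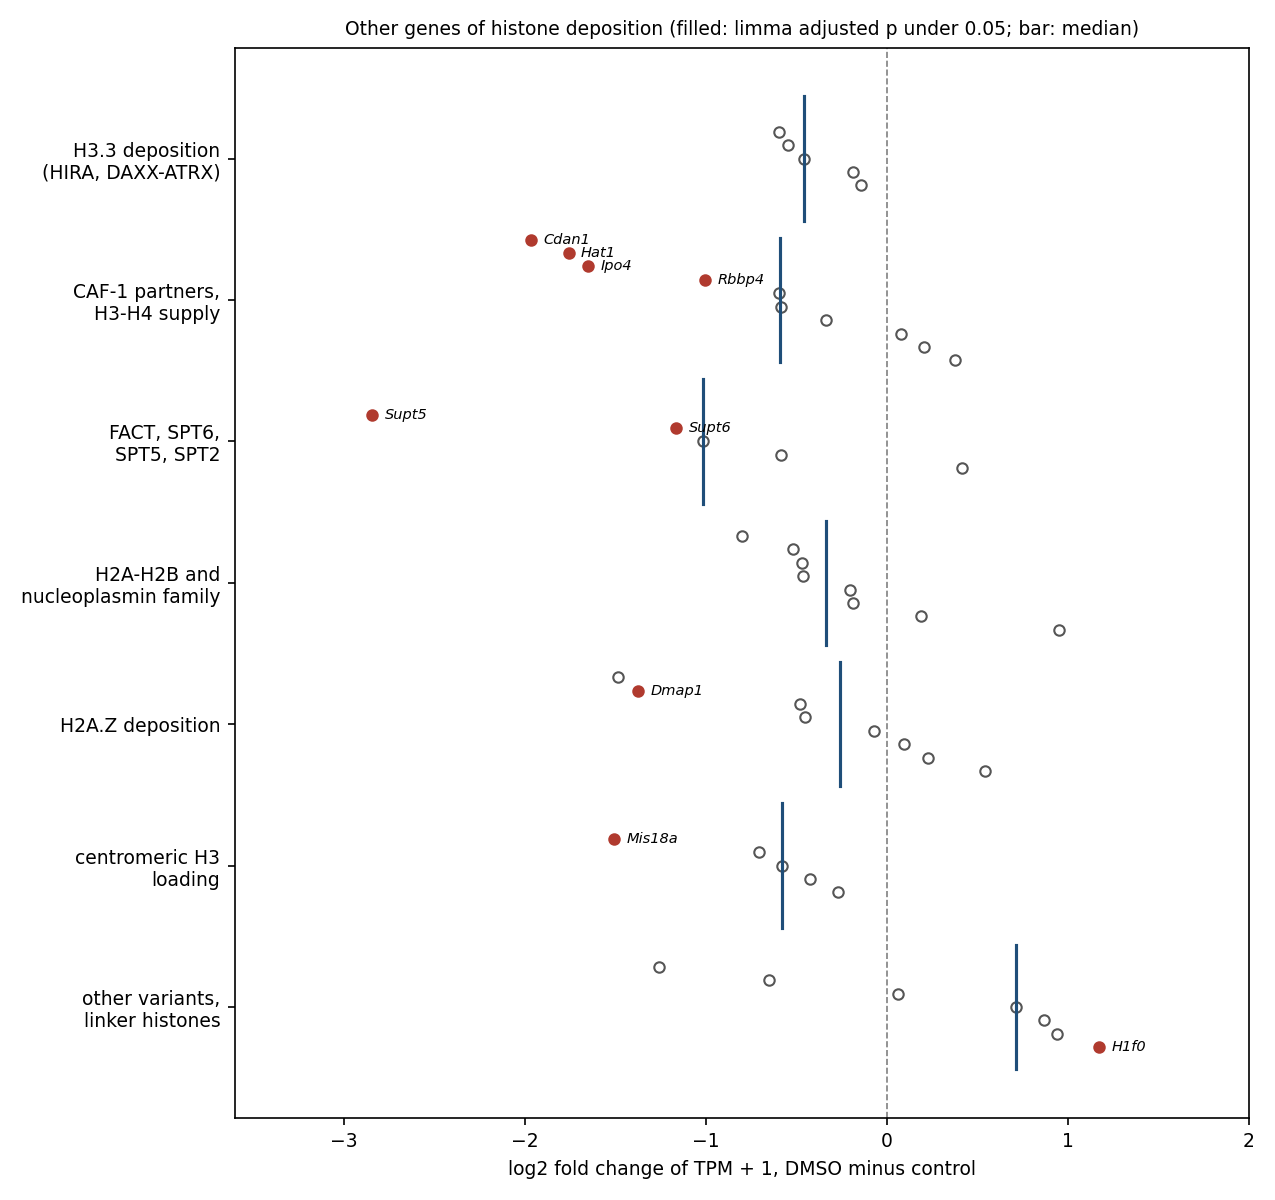
Log2 fold change of TPM + 1, DMSO minus control, of the 48 tested genes of histone deposition in 7 lists, with a bar at each list's median. Filled points mark the 9 genes called by limma at an adjusted p-value under 0.05, of which 8 are lower.

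Genes that work beside CAF-1 and supply new H3-H4 held 4 of the calls, all lower, among 10 tested, beside 14.1% of all genes called lower. Their median log2 fold change was -0.59, against -0.09 for all genes. Hat1, which acetylates newly made H4, was at 46.4 and 75.6 TPM without DMSO and 14.9 and 19.0 TPM with it (log2 fold change -1.76, SE 0.33, limma adjusted p = 0.0239). Ipo4, the importin that carries H3-H4 into the nucleus, fell from 218 and 253 to 62.2 and 88.0 TPM (log2 fold change -1.65, limma adjusted p = 0.0211). Cdan1, whose product codanin-1 binds ASF1 in the cytoplasm, fell from 37.0 and 54.8 to 7.31 and 15.8 TPM (log2 fold change -1.96, limma adjusted p = 0.0286), with 46.1% of its words shared with other genes. Rbbp4, the small subunit of CAF-1, fell from 64.1 and 64.8 to 30.1 and 33.2 TPM (log2 fold change -1.01, limma adjusted p = 0.0400). Rbbp4 did not pass after quantile normalization (limma adjusted p = 0.0826) or without limma's mean-variance trend (0.0573). Its paralog Rbbp7, which had the highest mean of the list over the 4 libraries but lay below Ipo4 in both control libraries, was at 199 and 200 TPM in the controls and 236 and 188 TPM after DMSO, on both sides of the control values (log2 fold change 0.08, limma adjusted p = 0.825).

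Chaperones and an elongation factor that travel with RNA polymerase II held 2 calls among 5 genes, both lower, beside 14.1% of all genes called lower. The list had a median log2 fold change of -1.02, against -0.09 for all genes. Supt5, a subunit of the elongation factor DSIF, fell from 12.9 and 16.3 TPM to 0.802 and 1.58 TPM (log2 fold change -2.84, SE 0.35, limma adjusted p = 0.0181), the largest change of the 48 genes. Supt6, a histone chaperone of transcription elongation, fell from 27.1 and 25.6 to 10.4 and 12.1 TPM (log2 fold change -1.16, limma adjusted p = 0.0360, and 0.0509 after quantile normalization). Ssrp1, a subunit of the chaperone FACT, had the highest mean of the list over the 4 libraries, though not in control embryos. It was at 18.9 and 23.5 TPM in control embryos, against 36.8 and 21.9 TPM under DMSO (log2 fold change 0.41, limma adjusted p = 0.388). Its groups overlapped, and without DMSO replicate 1 the value was 0.05. The other 4 genes of the list had negative log2 fold changes.

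Of 8 tested genes of H2A-H2B and nucleoplasmin-family chaperones none was called (limma, 0 of 8), beside 20.5% of all genes. An unadjusted p-value under 0.05 was reached by 2, beside 40.2% of all genes. The median log2 fold change of the list was -0.33, against -0.09 for all genes. Npm1 had the highest level (log2 fold change -0.47, SE 0.26, limma adjusted p = 0.212, and -0.30 without control replicate 2), and 28.6% of its words are shared. Anp32a had the largest log2 fold change, 0.95, from 2.56 and 1.47 TPM to 4.43 and 5.08 TPM (limma adjusted p = 0.0948). The TPM + 1 scale understates changes at such low levels.

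Among 8 tested genes of the complexes that place H2A.Z, SRCAP and TIP60-p400, 1 was called, beside 14.1% of all genes called lower. Dmap1, a subunit of both, fell from 7.51 and 10.4 to 3.2995 and 2.37 TPM (log2 fold change -1.37, limma adjusted p = 0.0388). Znhit1, a subunit of SRCAP, had the largest log2 fold change of the list, -1.48 (limma adjusted p = 0.115), with 3.99 and 6.26 TPM in control embryos, against 2.93 and 0.179 TPM under DMSO. The value rested on DMSO replicate 2, without which it was -0.61, against -1.20 for Dmap1, and it was -2.35 without DMSO replicate 1. Yeats4, with the highest mean of the list over the 4 libraries, was at 39.3 and 37.2 against 70.4 and 44.8 TPM (log2 fold change 0.54, limma adjusted p = 0.224). This was 0.22 without DMSO replicate 1 and 0.87 without DMSO replicate 2. Ruvbl1 had a mean under 1 TPM and was not tested, and Ruvbl2 was not analysed here.

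Of 5 genes that load the centromeric H3 variant, all had negative log2 fold changes (median -0.58). Limma called 1 of them lower, beside 14.1% of all genes. Mis18a, which prepares centromeres for loading, fell from 181 and 187 to 59.0 and 69.4 TPM (log2 fold change -1.51, SE 0.25, limma adjusted p = 0.0209). Cenpa, the variant itself, was at 412 and 393 TPM without DMSO and 306 and 294 TPM with it, which made a difference of -0.42 on the log2 scale (SE 0.23, limma adjusted p = 0.215). The control and DMSO values did not overlap.

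Of the remaining variants and linker histones 7 were tested and 1 was called, higher, beside 6.42% of all genes called higher. The log2 fold change was positive for 5 and negative for 2, with a median of 0.71, but the summed level of the list was lower under DMSO, at 443 and 412 TPM against 633 and 519 TPM in control embryos. The called gene was H1f0, a linker histone known from cells that have left the cell cycle, which rose from 18.6 and 17.1 to 47.7 and 36.1 TPM (log2 fold change 1.17, SE 0.29, limma adjusted p = 0.0369). H2afj, an H2A variant, had the most negative value of the list, -1.26 (limma adjusted p = 0.0804), with 24.2 and 29.8 TPM in control embryos, against 6.71 and 16.6 TPM under DMSO. It was -0.67 without DMSO replicate 1, beside -0.69 for H2afv, and -1.85 without DMSO replicate 2, where it passed (limma adjusted p = 0.0380). H2afv, described above with H2afz, was the most abundant and made up the larger part of the sum in every library.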

How the data were processed

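Reads were quantified by the authors with kallisto on an Ensembl GRCm38 transcriptome and summed per gene with tximport, and the deposited values are TPM per gene. Default kallisto settings are stated, with no strand option named, and its version is not given in the sources used here. TPM keeps no depth, so intervals for counting error could not be given, and the DESeq2 test of the authors was not repeated. All 4 columns were used. Gene names and coordinates came from GENCODE M21 (GRCm38), which named 29668 of 30049 identifiers.

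Testing used limma (version 3.58.1, R 4.3.3) with log2(TPM + 1) as the response, on all genes whose mean reached 1 TPM (mean-variance trend, no replicate block, adjustment over all genes tested). Steps were tested on simulated data. For each gene, 31-base words also present in transcripts of other genes of the table were counted on either strand. A copy holds at least 50% of its words in common with a member. The other tools were matplotlib 3.10.9, scipy 1.17.1, numpy 2.4.6 and pandas 2.3.3 under Python 3.11.15.

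The members, lists and ratios were chosen with earlier results of these data known. Named genes are the members, their nearest genes and copies, and in each list the genes called, the most abundant and that with the largest log2 fold change. Other genes named were chosen after their values were seen. Alternatives were the replicate block, quantile normalization, median-ratio scaling, eBayes without trend, a pseudocount of 0.1, other filters, copies added and leaving out each library.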

Additional observations from a re-analysis of the deposited data

How the results depend on the processing

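No member was called under limma's main setting, with a pseudocount of 0.1, without a trend, after median-ratio scaling, without a filter or without any one library. A filter at 5 TPM called 1 (Nasp) and quantile normalization 1 (Npm2). The replicate numbers share no stated origin. Deviations of same-numbered libraries correlated across genes (r = 0.35), and with the replicate block 5 members were called (H3f3a, Hira and Nasp lower, Asf1b and Npm2 higher) beside 42.6% of all genes, with 1 residual degree of freedom. The block called 5132 genes in place of 2470 and 18 of the listed genes in place of 9. Without a filter on low values limma called 0 genes and 0 listed genes, while an unadjusted p-value under 0.05 was reached by 5368. Without 1 library, where the lone library of a group is assumed to vary like the other group, between 0 and 1883 genes and between 0 and 7 listed genes were called, the 0 arising without control replicate 1, control replicate 2 or DMSO replicate 1. Leaving out a library turned the sign of H3f3b (-0.41 to 0.25), Chaf1a (-0.63 to 0.13), Chaf1b (-0.21 to 0.24) and Rbbp7 (-0.085 to 0.25), and of the log2 ratios of Chaf1a to Chaf1b (-0.87 to 0.34) and Asf1a to Asf1b (-0.13 to 0.08). The other members kept their direction under every alternative run. With Gm8203 added, the log2 ratio of H2afz to H2afv differed by 0.70 in place of 1.10. Quantile normalization moved the log2 fold changes of Atrx to -0.17, Cenpa to -0.20, Ubn1 to -0.39, H2afv to -0.43, Chaf1a to -0.038, Chaf1b to 0.20, Rbbp7 to 0.35 and H2afz to 0.74, with none of these called. It brought the lower members closer to no change, H3f3a to -0.69, Hira to -0.67 and Nasp to -0.67. The higher members moved up, Asf1a to 0.84, Asf1b to 0.94 and Npm2 to 1.13, and of these only Npm2 was called. A pseudocount of 0.1 gave log2 fold changes of -2.47 for Znhit1, in place of -1.48, and -3.56 for Supt5, in place of -2.84. The cause of these differences was not tested. TPM values hold no depth, and 2 libraries a group leave wide intervals.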

Other observations

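Genes used as markers of the later inner cell mass and trophectoderm were listed as well, 8 in all, and 7 of them were tested. Log2 fold changes were positive for 3 (Gata3, Nanog and Krt18) and negative for 4 (Tfap2c, Gata6, Krt8 and Sox2). Limma called 1 of the 7, beside 20.5% of all genes. Tfap2c, a transcription factor of the trophectoderm lineage, was called lower by limma. It was at 76.2 and 79.5 TPM in the controls and 21.4 and 32.1 TPM after DMSO (log2 fold change -1.53, SE 0.30, adjusted p = 0.0247). With such levels in control 2-cell embryos, Tfap2c does not mark a later stage here. Nanog, a pluripotency factor, was at 7.73 and 7.04 TPM in control embryos, against 11.5 and 14.0 TPM under DMSO and was not called (log2 fold change 0.71, limma adjusted p = 0.129). Gata3, another factor of the trophectoderm, was at 1.58 and 1.16 TPM in control embryos, against 4.84 and 2.50 TPM under DMSO, without overlap and not called (log2 fold change 0.94, limma adjusted p = 0.123). Of 4 blood cell markers 2 were tested and 0 were called by limma, beside 20.5% of all genes. An unadjusted p-value under 0.05 was reached by 0 of the 2, beside 40.2% of all genes. The 4 markers summed to at most 9.68 TPM in a library.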
